A study of Ovis aries with 40 samples.

Results

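The insulin-like growth factor (IGF) system of the developing sheep lung was followed through 10 genes: the ligands IGF1 and IGF2, the receptors IGF1R and IGF2R, and the binding proteins IGFBP2, IGFBP3, IGFBP4, IGFBP5, IGFBP6 and IGFBP7. They were taken by gene symbol from the count tables of proximal and distal lung and are 10 of the 24478 genes listed there. All 10 were found, and each passed the filter on low counts in every comparison.

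IGF1 and IGF2 are secreted growth factors that signal through IGF1R, a receptor tyrosine kinase. IGF2R binds IGF2 and carries it to the lysosome, and it also sorts lysosomal enzymes. Secreted binding proteins hold the ligands outside the cell, lengthen their life and set how much reaches the receptor, and proteases such as PAPPA release the ligands again. IGF2 is an imprinted gene of fetal growth, made widely by fetal mesenchyme and switched down around birth, while IGF1 is the growth hormone-dependent ligand of later life.

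Bulk RNA was sequenced from proximal and distal lung of wildtype (WT) American Romney sheep and of sheep without CFTR (CFTR-/-, called CF), at 65, 80, 100 and 120 days of gestation and at 147 days (term), with 2 libraries in each of the 20 conditions. WT fetuses came from ordinary breeding and the WT term animals were born naturally, whereas CF fetuses were made by somatic cell nuclear transfer from edited male fetal fibroblasts, and cloning and donor-cell origin cannot be told apart from the loss of CFTR. The counted reads of a library ran from 24670355 to 43700012 in WT before term (n = 16), from 85773994 to 103139483 in CF before term (n = 16), from 115937437 to 126749480 at WT term (n = 4) and from 117316905 to 119451372 at CF term (n = 4). Depth therefore went with genotype before term and not at term. Within each genotype it was higher at term, with the larger step in WT. Proximal and distal pieces with the same replicate number carried the same animal labels. Both WT libraries of a region at 100 days carried 1 animal label and were kept as 2, and 1 label was shared by a WT library of 65 days and a CF library of 100 days in each region. With 2 libraries a condition, the p-values measure the spread between these libraries.

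The labels name epithelial tissue, and the libraries held RNA of epithelial and of mesenchymal markers. Each of 6 epithelial and 7 fibroblast markers was above 0 in all 40 libraries, among them EPCAM of epithelium (median 178 CPM, counts scaled to library size) and the fibroblast genes PDGFRA (156) and DCN (330). The 3 collagens COL1A1, COL1A2 and COL3A1 (medians of 1799, 2560 and 4953 CPM) made up most of the fibroblast sum. In such samples fewer cells of a type and less RNA per cell cannot be told apart. Libraries also differed in how gene length bore on their counts. A length index was computed after seeing the data as the median log2 level of genes with 4000 or more exonic bases, relative to the mean of all libraries, minus that of genes with 1500 or fewer, counting only genes whose mean log2 CPM reached 3. It lay between -0.32 and 0.20 in WT libraries before term (n = 16) and between -1.13 and 1.00 in CF libraries before term (n = 16). It lay between -0.88 and -0.22 at WT term (n = 4) and between -0.83 and -0.46 at CF term (n = 4). The lowest value was that of CF proximal lung at 120 days, replicate 2, which held IGF2R at 5.65 CPM where replicate 1 held 618.

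Levels of the 10 genes are given as CPM on a library size normalized by trimmed mean of M-values (TMM), and between genes only per kilobase of annotated exon. Per kilobase, IGF2 came first with a median of 566 CPM over the 40 libraries, followed by IGFBP7 at 158 and IGFBP4 at 135. IGF2R (53.1), IGFBP5 (50.3) and IGFBP6 (46.5 CPM per kilobase) lay close together, with ranges over libraries that overlapped. IGFBP3 (16.1), IGFBP2 (11.7) and IGF1R (11.2) followed, and IGF1 was last at 2.34 CPM per kilobase. IGF2 therefore had the highest and IGF1 the lowest median of the set, and neighbours between them had overlapping ranges. At WT term IGF2 was not first, with a mean of 60.6 CPM per kilobase in proximal and 50.8 in distal lung, below IGFBP7 (472 and 609), IGFBP4 (140 and 167) and IGFBP6 (72.4 and 92.5). The annotated exons of IGFBP7 (376 bases), IGFBP4 (777) and IGFBP3 (869) are short gene models, and the order holds for the annotated exons only.

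On the Oar_v4.0 build of the count tables, IGF2 lies at chr21:48548749-48573206 (plus strand), IGF1 at chr3:171037883-171113228 (minus strand), IGF1R at chr18:6916510-7211789 (plus strand) and IGF2R at chr8:82792178-82878871 (plus strand). IGFBP2 at chr2:217602923-217632202 (plus strand) and IGFBP5 at chr2:217641544-217664673 (minus strand) are neighbours that converge on each other. IGFBP3 lies at chr4:76135031-76140331 (plus strand), IGFBP4 at chr11:40200887-40211101 (plus strand), IGFBP6 at chr3:133050006-133060186 (minus strand) and IGFBP7 at chr6:72351298-72365418 (minus strand). Of the 10, IGFBP6 alone had annotated exons that overlapped those of another gene (SPRYD3, on the other strand), and its counts are uncertain to that extent.

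**Figure D1:**
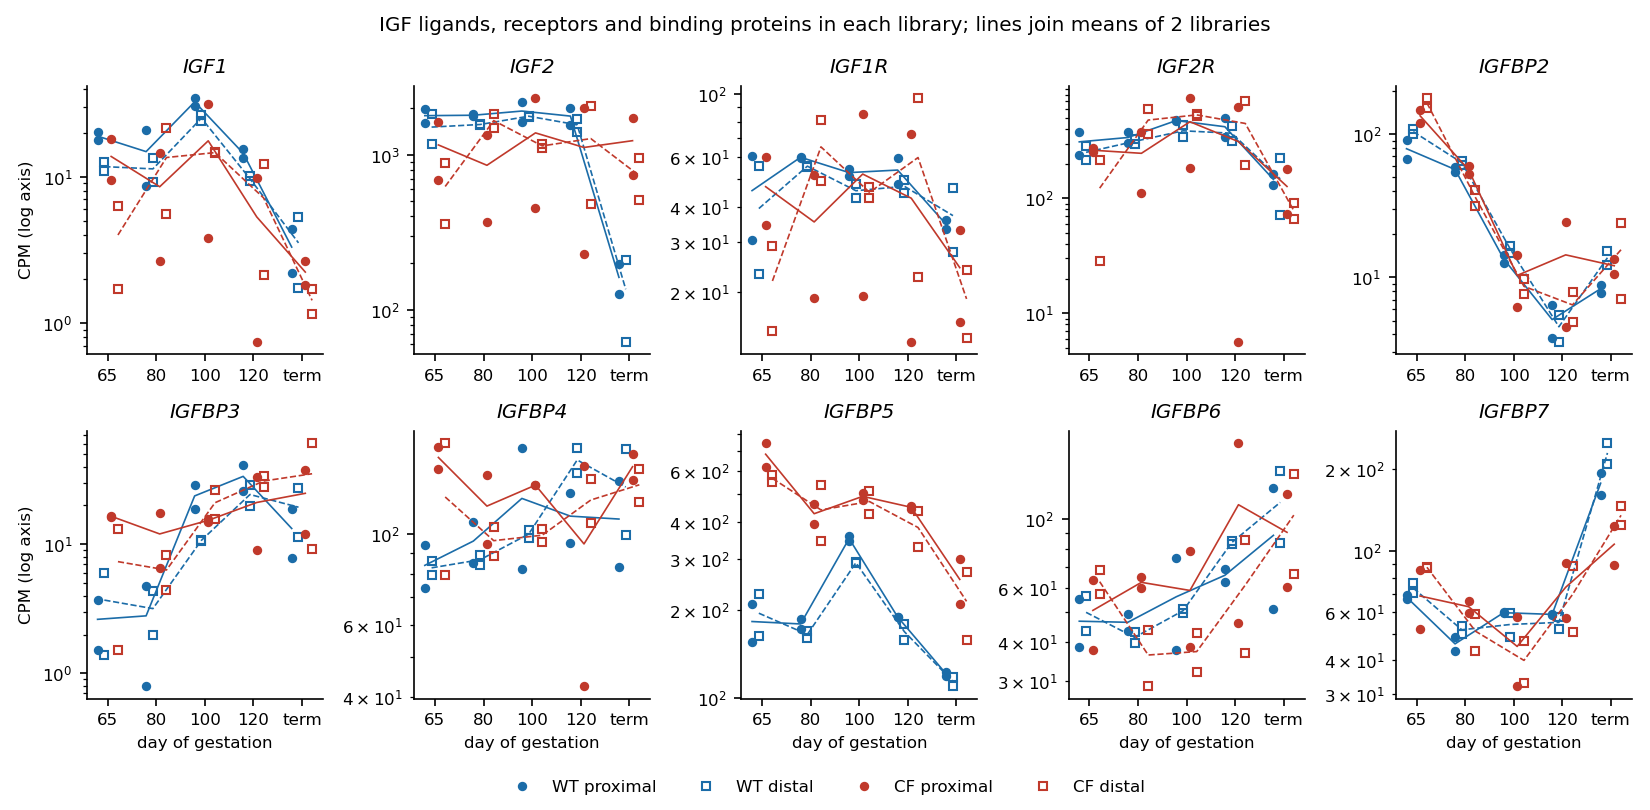
Level of each of the 10 genes in CPM on a log axis against day of gestation, with 1 point per library (blue WT, red CF, filled circles proximal, open squares distal) and lines joining the means of 2 libraries. IGFBP2 is highest at 65 days in all 4 courses, IGF2 is far lower at term than before in WT, and CF points lie above the WT points of their region at every day for IGFBP5.

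A gene was called at an adjusted p of 0.001 or less with a log2 fold change of 0.58 or more, the limits of the study. A looser adjusted p of 0.05 or less is given beside it, the words rose, fell and changed standing for that looser limit. Over the 5 time points 4 of the 10 members were called in WT proximal lung (IGF2, IGFBP2, IGFBP5 and IGFBP7) against 10.6% of all genes tested, and 7 passed 0.05 against 40.8%. In WT distal lung 2 were called (IGFBP2 and IGFBP7) against 7.48% of genes, and 8 passed 0.05 against 40.4%. In CF proximal lung 0 were called by edgeR against 0.0254% of genes and 1 passed 0.05 against 5.36%, with 2 at an unadjusted p under 0.05 and 1 called by DESeq2 (10.6% of genes). In CF distal lung 1 was called (IGFBP2) against 3.59% of genes, and 2 passed 0.05 against 33.9%. The median span between the highest and the lowest condition mean of the 10 members was 1.82 on the log2 scale in WT proximal and 1.78 in WT distal lung, beside 0.97 and 1.03 over all genes. It was 1.21 and 1.79 in CF beside 1.14 and 1.33.

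In WT lung and in CF distal lung more members passed in the last interval than in any earlier one. From 120 days to term 5 members passed 0.05 in WT proximal lung, 4 of them lower and 1 higher, against 24.6% of all genes (11.1% lower and 13.5% higher). In WT distal lung 6 passed, 4 lower and 2 higher, against 25.8% of genes (12.3% lower and 13.5% higher). IGF1, IGF2, IGF2R and IGFBP5 were lower and IGFBP7 higher in both regions, with IGFBP2 also higher in distal lung. Both term libraries lay below all 8 earlier ones for 4 members in WT proximal lung, where 18.4% of genes did so, and for 3 members in WT distal lung (17.9% of genes). IGFBP7 alone lay above all earlier libraries in each (23.3% and 22.3% of genes). In CF distal lung 1 member, IGFBP7, passed 0.05 in this interval (23% of genes). In CF proximal lung 0 of 10 did by edgeR (0.356% of genes, 1 member at an unadjusted p under 0.05), and 0 were called by DESeq2 (2.17% of genes). The members called in it were IGF2 and IGFBP7 in WT proximal lung (2.14% of genes) and IGFBP7 in WT distal lung (1.15%). From 80 to 100 days IGFBP2 and IGFBP5 passed 0.05 in WT proximal lung (1.94% of genes) and IGFBP2 in WT distal lung (1%). From 100 to 120 days IGFBP2 and IGFBP5 passed in WT proximal (2.67%) and in WT distal lung (2.49%). With the 2 WT libraries of 100 days, which share an animal label, summed as 1, none of these 7 calls to or from 100 days passed (adjusted p from 0.0539 to 0.292). In 1 fit of all 40 libraries, 13 of the 18 calls between consecutive WT time points and 6 of the 15 WT courses past 0.05 were lost. With counts thinned to equal depth within each fit, no call of either kind was lost. No member passed between 65 and 80 days in WT proximal (0.011% of genes) or WT distal lung (0.0164%), or in an interval before 120 days in CF, where at most 0.0203% of genes passed in proximal and 0.928% in distal lung.

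IGF2 stayed high through gestation in WT lung and was far lower at term, and its change to term did not pass in CF lung. IGF2 in WT proximal lung was 1609 and 1963 CPM at 65 days, 1775 and 1819 at 80 days, 1634 and 2191 at 100 days, 1549 and 2000.3 at 120 days and 197 and 126 at term. IGF2 in WT distal lung was 1179 and 1836 CPM at 65 days, 1546 and 1587 at 80 days, 1763 and 1779.9 at 100 days, 1406 and 1711 at 120 days and 209 and 62.1 at term. Both term libraries lay below all 8 earlier libraries in each WT region, with no earlier library near them. Between 120 days and term IGF2 fell in WT proximal lung (log2 fold change -3.46, SE 0.26, adjusted p = 1.17e-04) and in WT distal lung (log2 fold change -3.55, SE 0.49, adjusted p = 0.00223). IGF2 in CF proximal lung was 686 and 1626 CPM at 65 days, 367 and 1343 at 80 days, 2315 and 450.3 at 100 days, 1999 and 229 at 120 days and 742 and 1721 at term. IGF2 in CF distal lung was 888 and 359 CPM at 65 days, 1841 and 1477 at 80 days, 1173 and 1106 at 100 days, 2060.2 and 481 at 120 days and 511 and 954 at term. CF replicates of 1 condition were far apart at several time points, and the term libraries lay inside the range of the earlier ones. Before term, IGF2 in CF went with the length index of the library (r = 0.96 in each region over 8 libraries). The change from 120 days to term in CF was 0.11 on the log2 scale in proximal lung (SE 1.13, adjusted p = 0.982) and -0.83 in distal lung (SE 0.64, adjusted p = 0.356). Mesenchymal markers moved with IGF2 in WT. The summed level of 7 fibroblast markers was 7699.9 to 13304 CPM before term and 3544 to 5621 CPM at term in WT proximal lung, and 8686 to 10882 and 5003 to 6660 CPM in WT distal lung. That of 4 pericyte markers was 298 to 576 and 171 to 287 CPM in WT proximal, and 305 to 555 and 166 to 292 CPM in WT distal lung. From 120 days to term 5 of 7 fibroblast and 2 of 4 pericyte markers fell in WT proximal lung and 4 of 7 and 3 of 4 in WT distal lung. Their part in the IGF2 level was not tested.

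IGF1 was low throughout, highest at 100 days in WT lung and lowest at term. IGF1 in WT proximal lung was 20.2 and 17.8 CPM at 65 days, 8.69 and 21 at 80 days, 34.5 and 30.6 at 100 days, 13.4 and 15.6 at 120 days and 4.41 and 2.2 at term. IGF1 in WT distal lung was 12.5 and 10.9 CPM at 65 days, 9.23 and 13.4 at 80 days, 26.3 and 24 at 100 days, 9.33 and 10.1 at 120 days and 5.32 and 1.75 at term. In both regions the 2 libraries of 100 days lay above, and the 2 of term below, all others, and the 2 of 100 days share an animal label. IGF1 changed over the 5 time points in WT proximal (adjusted p = 0.00296) and WT distal lung (adjusted p = 0.00891). It fell from 120 days to term by 2.14 and by 1.48 on the log2 scale (adjusted p = 0.00639 and 0.0361). With the spread estimated from all 40 libraries together the course did not pass in either region (adjusted p = 0.18 and 0.27). Without WT distal lung at 120 days, replicate 1 or replicate 2, the distal fall of IGF1 had an adjusted p of 0.11, and with the libraries of 100 days summed 0.0632. Levels in CF lung spanned 0.743 to 31.4 CPM, and neither CF course passed (adjusted p = 0.63 proximal and 0.0842 distal). Per kilobase, IGF2 was 56.8 to 91.5 times IGF1 at WT term (n = 4) and 477 to 1326 times at CF term (n = 4).

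In WT lung the receptors spanned less over time than the ligands. IGF2R in WT proximal lung was 380.3 and 240.1 CPM at 65 days, 301 and 375 at 80 days, 479 and 472 at 100 days, 499 and 341 at 120 days and 162 and 131 at term. In WT distal lung it ranged from 218 to 431 CPM before term and was 224 and 71.7 CPM at term. Both term libraries of WT proximal lung lay below all earlier ones, while in distal lung 1 of the 2 did not. IGF2R fell from 120 days to term in WT proximal (log2 fold change -1.53, SE 0.25, adjusted p = 0.00291) and WT distal lung (log2 fold change -1.35, SE 0.43, adjusted p = 0.0482). The distal call was lost without any of 9 of the 10 libraries of the course, with an adjusted p of up to 0.21 (without WT distal lung at 120 days, replicate 1). In a fit of all 40 libraries the adjusted p of the fall was 0.42 proximally and 0.46 distally, and with the libraries of 100 days summed the distal fall of IGF2R had 0.0737. IGF1R, the signalling receptor, ranged from 23.1 to 60.6 CPM in WT and from 13.3 to 96.7 CPM in CF libraries, and it passed 0.05 in none of the 4 courses (adjusted p from 0.106 to 0.96). IGF2R in CF spanned 5.65 to 744 CPM in proximal and 28.6 to 702 CPM in distal lung without passing (adjusted p = 0.966 and 0.0747).

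IGFBP2, a binding protein of early embryonic tissues, had the steepest course of the set and passed in all 4. IGFBP2 in WT proximal lung was 67.5 and 90.8 CPM at 65 days, 59 and 54.4 at 80 days, 12.6 and 14.4 at 100 days, 6.4 and 3.76 at 120 days and 8.9 and 7.78 at term. IGFBP2 in WT distal lung was 100.4 and 108 CPM at 65 days, 65 and 61.4 at 80 days, 16.6 and 14.9 at 100 days, 3.55 and 5.5 at 120 days and 12.1 and 15.3 at term. The libraries of 65 and 80 days lay far above all later ones, and the lowest values were at 120 days. IGFBP2 in CF proximal lung was 148 and 121 CPM at 65 days, 52.5 and 60.4 at 80 days, 6.22 and 14.4 at 100 days, 4.51 and 24.2 at 120 days and 10.6 and 13.5 at term. IGFBP2 in CF distal lung was 153 and 178 CPM at 65 days, 31.5 and 40.8 at 80 days, 7.64 and 9.68 at 100 days, 4.9 and 7.96 at 120 days and 7.1 and 24.1 at term. In CF too the libraries of 65 and 80 days lay above all later ones, and CF proximal lung at 120 days, replicate 2, stood far above its partner. Highest and lowest condition means differed by 3.97 on the log2 scale in WT proximal (adjusted p = 1.82e-05), 4.52 in WT distal (adjusted p = 1.21e-05), 3.69 in CF proximal (adjusted p = 0.0382) and 4.66 in CF distal lung (adjusted p = 5.16e-04). In WT it fell from 80 to 100 days by 2.09 proximally (adjusted p = 0.00564) and by 2.01 distally (adjusted p = 0.00435) on the log2 scale, and fell again to 120 days. The CF proximal course had an adjusted p of up to 0.16 when 1 library was left out (CF proximal lung at 65 days, replicate 1). With 1 library of 100 days left out, the WT falls to 100 and to 120 days had adjusted p of up to 0.13, and with the 2 of them summed IGFBP2 had 0.0539 to 0.103. From 120 days to term it rose in WT distal lung (log2 fold change 1.57, SE 0.21, adjusted p = 0.0019). The summed level of 4 cartilage markers was also lower at later days, with 264 to 406 CPM in WT at 65 and 80 days, 52 to 149 at 100 days, 7.02 to 17.8 at 120 days and 12.3 to 20.6 at term. Among the 4, COL2A1 had a median of 87.1 CPM over the 40 libraries, beside 7.17 for ACAN, 5.65 for COL11A2 and 0.0989 for MATN1. The part of cartilage in the IGFBP2 course was not tested.

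IGFBP7, a binding protein of low affinity for IGFs made by endothelium among other cells, rose at term in both WT regions. IGFBP7 in WT proximal lung was 66.7 and 69.2 CPM at 65 days, 43 and 48.6 at 80 days, 59.9 and 59.3 at 100 days, 58.5 and 59 at 120 days and 194 and 161 at term. IGFBP7 in WT distal lung was 70.1 and 76.5 CPM at 65 days, 49.7 and 53.4 at 80 days, 48.6 and 59.3 at 100 days, 52.2 and 57.7 at 120 days and 209 and 249.7 at term. Both term libraries of each WT region stood above all 8 earlier ones. The rise from 120 days was 1.59 on the log2 scale in proximal (SE 0.12, adjusted p = 9.16e-05) and 2.04 in distal lung (SE 0.15, adjusted p = 2.15e-04). IGFBP7 in CF proximal lung was 85.1 and 52.1 CPM at 65 days, 59.4 and 66 at 80 days, 32 and 57.7 at 100 days, 56.8 and 90.9 at 120 days and 123 and 89 at term. IGFBP7 in CF distal lung was 87.1 and 87.8 CPM at 65 days, 43.1 and 58.9 at 80 days, 32.9 and 46.9 at 100 days, 50.5 and 88.4 at 120 days and 146 and 125 at term. The term libraries of CF distal lung lay above all earlier ones (17.8% of genes), and 1 of those of CF proximal lung did not. From 120 days to term IGFBP7 rose in CF distal lung (log2 fold change 0.97, SE 0.28, adjusted p = 0.0371). With the length trend removed from each library it was 0.04 (adjusted p = 0.89), and without CF distal lung at 120 days, replicate 1, it was 0.62 (adjusted p = 0.19). The change in CF proximal lung was 0.49 (adjusted p = 0.614). Leukocyte markers moved with it, and the sum of PTPRC, CD68, MARCO, CD3E and CSF1R was 42.8 to 82.3 CPM in WT before term and 357 to 761 CPM at WT term. It was 51.9 to 97 CPM in CF before term and 87.6 to 194 CPM at CF term. Of the 5 markers, 4 rose from 120 days to term in each WT region and in CF distal lung and 0 did in CF proximal lung at an adjusted p of 0.05. MARCO, of lung macrophages, was at 0 in 20 of the 40 libraries and reached 494 CPM, beside at most 138 CPM for any other of the 5. Epithelial markers were also higher at WT term, with a sum of 6 markers of 577 to 896 CPM before and 1569.6 to 1794 CPM at term. In CF that sum was 448 to 938 and 752 to 1407 CPM. The sum of 5 endothelial markers was 795 to 1802 CPM in WT before term and 1104 to 1698 CPM at WT term. The part of leukocytes or epithelium in the IGFBP7 level was not tested.

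**Figure D2:**
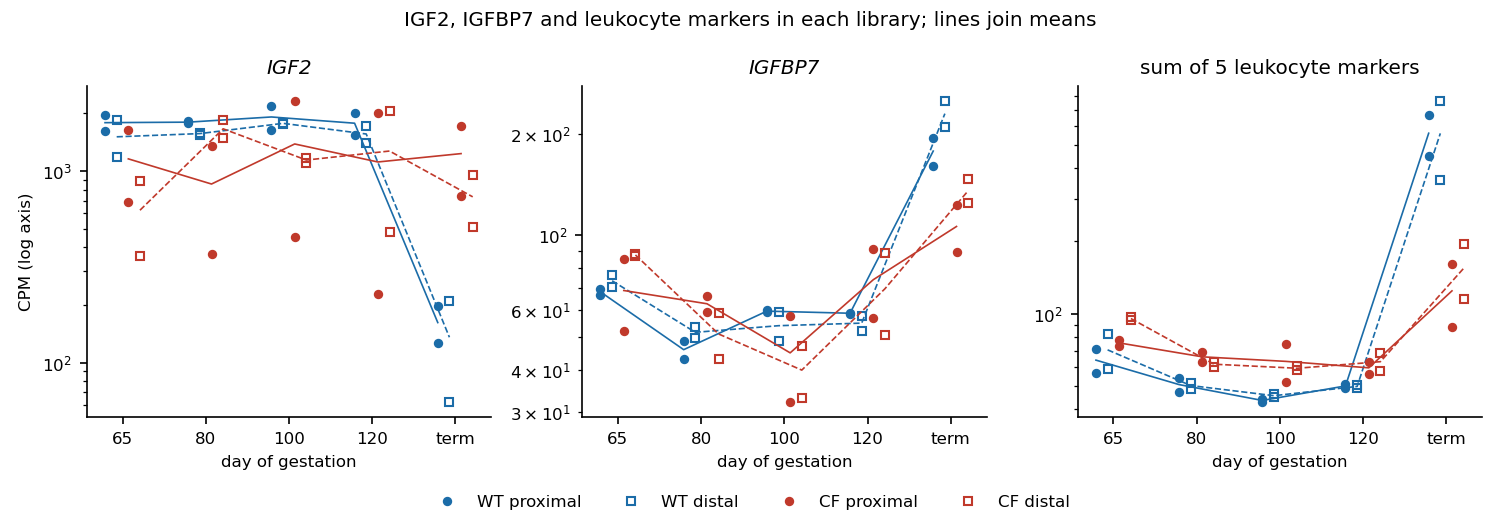
IGF2, IGFBP7 and the summed level of 5 leukocyte markers in CPM on log axes against day of gestation, with 1 point per library (blue WT, red CF, filled circles proximal, open squares distal) and lines joining means of 2 libraries. At term the 4 WT libraries are the lowest for IGF2 and the highest for IGFBP7 and for the leukocyte sum, and CF term libraries lie below WT term libraries in the last 2 panels.

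IGFBP5, which binds matrix and is made by mesenchymal and smooth muscle cells, had its 2 lowest libraries at term in each of the 4 courses, as did 11.3% of genes in CF proximal and 18.4% in CF distal lung. IGFBP5 in WT proximal lung was 210.0 and 155 CPM at 65 days, 171 and 187 at 80 days, 345 and 358 at 100 days, 189.9 and 189 at 120 days and 122 and 119 at term. IGFBP5 in WT distal lung was 227 and 163 CPM at 65 days, 169.7 and 160.0 at 80 days, 291 and 289 at 100 days, 157 and 179 at 120 days and 109 and 118 at term. The 2 libraries of 100 days stood above all other WT libraries of their region. The course passed in WT proximal (adjusted p = 2.79e-04) and WT distal lung (adjusted p = 0.0021), and with the 2 libraries of 100 days summed as 1 it passed 0.05 in both (adjusted p = 0.00248 and 0.0136) and was no longer called in proximal lung. So summed, IGFBP5 did not pass from 80 to 100 days (adjusted p = 0.0791 in WT proximal lung) or from 100 to 120 days (adjusted p = 0.0931 in WT proximal and 0.292 in WT distal lung). From 120 days to term it fell by 0.65 proximally (adjusted p = 0.0090) and by 0.58 distally (adjusted p = 0.0304) on the log2 scale. With the length trend removed the distal fall was 0.36 and did not pass (adjusted p = 0.12). In 1 fit of all 40 libraries neither fall of IGFBP5 passed (adjusted p = 0.0773 and 0.116), and with the libraries of 100 days summed the distal one had 0.0506. In CF the change to term was -0.85 and -0.84 on the same scale and did not pass (adjusted p = 0.233 and 0.0797).

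IGFBP3, the main carrier of circulating IGFs, was low at 65 and 80 days in WT lung and higher from 100 days on. IGFBP3 in WT proximal lung was 3.74 and 1.51 CPM at 65 days, 0.793 and 4.79 at 80 days, 18.6 and 28.8 at 100 days, 25.8 and 41.3 at 120 days and 18.7 and 7.79 at term. IGFBP3 in WT distal lung was 5.99 and 1.4 CPM at 65 days, 1.99 and 4.36 at 80 days, 10.8 and 10.7 at 100 days, 19.8 and 28.8 at 120 days and 27.4 and 11.3 at term. In each region the libraries of 65 and 80 days lay below all later ones. Its course passed in WT proximal (adjusted p = 0.00895) and WT distal lung (adjusted p = 0.0199, 0.053 without replicate 2 of 120 days and 0.0589 for IGFBP3 in 1 fit of all 40 libraries) and not in CF (adjusted p = 0.903 and 0.167), where levels were 1.51 to 61.1 CPM. IGFBP4, an inhibitor of IGF action that PAPPA cleaves, had the smallest span of the binding proteins in each course, at 73.6 to 162 CPM in WT and 42.5 to 166 CPM in CF libraries. Of the 4 courses it passed in WT distal lung only (adjusted p = 0.0216), a call lost without any 1 of the 6 libraries of 80, 100 and 120 days (adjusted p of up to 0.086) and in 1 fit of all 40 libraries (0.305 for IGFBP4). The IGFBP4 call was also lost with the libraries of 100 days summed (adjusted p = 0.0537) and with the length trend removed (0.0641). IGFBP6, which prefers IGF2, changed in WT distal lung (adjusted p = 0.00353), from 43.1 and 39.8 CPM at 80 days to 142 and 83.9 CPM at term, and passed in no other course (adjusted p from 0.0699 to 0.705). In 1 fit of all 40 libraries the distal course of IGFBP6 did not pass (adjusted p = 0.138).

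IGFBP5 was higher in CF than in WT lung in both regions and at every time point, and was the one member that differed between the genotypes on average over time. IGFBP5 in CF proximal lung was 619 and 748 CPM at 65 days, 461 and 394 at 80 days, 475 and 505 at 100 days, 443 and 455 at 120 days and 299 and 209.6 at term. IGFBP5 in CF distal lung was 579 and 549 CPM at 65 days, 537 and 344 at 80 days, 428 and 513 at 100 days, 328 and 438 at 120 days and 269.7 and 158 at term. Both CF libraries lay above both WT libraries of their day at 5 of 5 time points in each region, as for 3.65% of genes in proximal, 4.01% in distal lung and 2.26% in both. The mean difference was 1.19 on the log2 scale in proximal lung (SE 0.10, 2.28-fold, adjusted p = 1.26e-05) and 1.16 in distal lung (SE 0.12, 2.23-fold, adjusted p = 6.22e-06). At single time points it was 1.90 at 65 days, 1.25 at 80, 0.48 at 100, 1.25 at 120 days and 1.08 at term in proximal lung (adjusted p = 0.0107, 0.0493, 0.356, 0.0204 and 0.0105). In distal lung the same values were 1.54, 1.42, 0.68, 1.20 and 0.94 (adjusted p = 0.00412, 0.00672, 0.138, 0.0174 and 0.0246). The difference was smallest at 100 days, where WT levels were highest. It passed 0.05 at 4 of 5 time points in each region, all but 100 days. Of all genes, 0.167%, 0.0885%, 0.383%, 1.35% and 6.09% passed at the 5 time points in proximal lung and 5.23%, 5.92%, 5.3%, 4.38% and 15.2% in distal lung. Each of these calls was lost without at least 1 of the 4 libraries of its time point, with adjusted p of up to 0.45 (proximal, 80 days, without WT replicate 2). With the WT libraries of 100 days summed, the proximal difference of IGFBP5 at 80 days had an adjusted p of 0.0834. With other normalization (RLE) the same difference had 0.0529, and with the length trend removed 0.0640. The distal difference at term fell to 0.46 on the log2 scale without CF replicate 1 (adjusted p = 0.25). A difference that varied over time was not shown (adjusted p = 0.218 proximal and 0.415 distal). For such a difference 0 of 10 members passed 0.05 by edgeR (0.462% of proximal and 4.64% of distal genes did), with 2 proximal and 3 distal members at an unadjusted p under 0.05. DESeq2 called 0 members for it, beside 2.1% and 5.68% of genes.

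Markers of other cells, depth and cloning also went with genotype. The summed level of 6 smooth muscle markers was 647 to 1561 CPM in CF and 294 to 782 CPM in WT libraries before term. At term it was 277 to 556 CPM in CF and 619 to 1007 CPM in WT, lower in CF without overlap. Averaged over time, 5 of the 6 markers were higher in CF in each region at an adjusted p of 0.05. The sum of 4 pericyte markers at term was 391 to 410 CPM in CF and 171 to 287 CPM in WT proximal lung, and 318 to 362 and 166 to 292 CPM in distal lung, higher in CF without overlap. Before term it was 273 to 940 CPM in CF and 298 to 576 CPM in WT, and averaged over time 1 of the 4 markers was higher in CF in proximal and 3 in distal lung. Of the 7 fibroblast markers 2 and 3 were higher and 0 lower in CF, and of the 6 epithelial markers 0 were higher and 1 and 2 lower, in proximal and distal lung. The fibroblast sum before term was 8684 to 25474 CPM in CF and 7699.9 to 13304 CPM in WT, and at term 3691 to 9242 and 3544 to 6660 CPM, with overlap. The epithelial sum was 448 to 938 CPM in CF and 577 to 896 CPM in WT before term, and 752 to 1407 and 1569.6 to 1794 CPM at term, lower in CF without overlap. With counts thinned to equal depth the difference in IGFBP5 was 1.18 proximally and 1.14 distally on the log2 scale, and at term the read totals of both genotypes lay in like ranges. With the length trend removed it was 1.18 and 1.06, and without the term libraries 1.21 and 1.21. The part of these cell types in it was not tested, and cloning cannot be told apart from genotype.

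Of the 10 members, 1 was called between the genotypes in proximal lung against 2.61% of all genes, and 1 in distal lung against 5.94%, and no other member passed 0.05, which 21.8% and 31.2% of genes did. The median difference of the members was 0.15 on the log2 scale in proximal and -0.09 in distal lung, beside 0.04 and 0.01 over all genes. IGFBP3 had the next largest value, 0.87 (SE 0.36, adjusted p = 0.106) in proximal and 0.84 (SE 0.40, adjusted p = 0.129) in distal lung. IGF1 was -0.83 (SE 0.46, adjusted p = 0.222) and -0.76 (SE 0.34, adjusted p = 0.105) on the same scale. IGF2 averaged 0.02 (SE 0.39) and 0.07 (SE 0.27), being higher in CF at term and lower at 65, 100 and 120 days in both regions. The standard errors of IGF1, IGF2 and IGF2R were larger than that of IGFBP5 in each region.

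**Figure D3:**
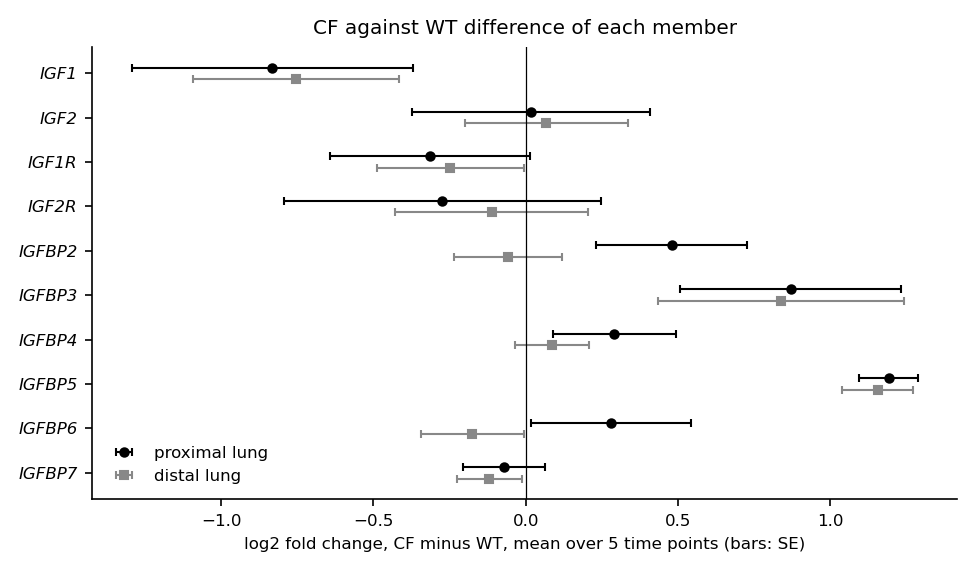
Log2 fold change of CF minus WT, averaged over the 5 time points, for each of the 10 genes in proximal (black circles) and distal (grey squares) lung, with bars for the SE. IGFBP5 stands at 1.19 and 1.16, and the other members lie between -0.83 and 0.87.

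At term the ligand IGF2 was higher in CF than in WT distal lung. The 4 CF term libraries held 511 to 1721 CPM and the 4 WT term libraries 62.1 to 209 CPM, with no overlap. The difference was 2.47 on the log2 scale in distal lung (SE 0.63, adjusted p = 0.0187) and 2.93 in proximal lung, where it did not pass (SE 0.94, adjusted p = 0.0867). Leaving out 1 library of the 20, the distal adjusted p ranged from 0.0058 to 0.13, and the call was lost without CF replicate 2 of term (0.13) and without WT replicate 2 of term (0.11). In 1 fit of all 40 libraries the distal difference of IGF2 had an adjusted p of 0.0667. Cell markers differed at term as well. The pericyte sum was 318 to 362 CPM in CF and 166 to 292 CPM in WT distal lung, and over both regions the epithelial sum was 752 to 1407 CPM in CF and 1569.6 to 1794 CPM in WT. Over both regions the leukocyte sum was 87.6 to 194 CPM in CF and 357 to 761 CPM in WT, and the smooth muscle sum 277 to 556 and 619 to 1007 CPM. The part of these cells in the IGF2 difference was not tested. IGFBP7 at term was -0.74 proximally (adjusted p = 0.181) and -0.73 distally (adjusted p = 0.052) in CF minus WT. With the length trend removed it was -1.06 (adjusted p = 0.0129) and -1.01 (adjusted p = 5.89e-04), lower in CF in both regions, where 8.2% of proximal and 19% of distal genes then passed 0.05, and was called in distal lung (2.03% of genes were). Whether the change from 120 days to term differed between the genotypes was tested after seeing the data. On the log2 scale the difference in change was 3.60 for IGF2 in proximal (adjusted p = 0.186) and 2.74 in distal lung (adjusted p = 0.0603). It was -1.07 and -1.08 for IGFBP7 (adjusted p = 0.24 and 0.0584). By edgeR 0 of 10 members passed 0.05 in this test in either region, where 1.78% of proximal and 9.31% of distal genes did, with 2 members in each region at an unadjusted p under 0.05 and 0 called by DESeq2 (1.73% and 4.27% of genes were). With the length trend removed, 2 members passed 0.05 in distal lung (12.3% of genes), IGFBP7 with -1.70 (SE 0.22, adjusted p = 4.20e-04, called, as were 0.418% of genes) and IGF2 with 2.84 (SE 0.87, adjusted p = 0.0457), and 0 in proximal lung, where 3.32% of genes did (adjusted p = 0.0575 for IGFBP7 and 0.133 for IGF2). Whether the changes to term differed between the genotypes thus depended on that correction in distal lung. WT term animals were born naturally, and their time from birth to euthanasia was recorded. The paper names that time as a factor that bears on term lung transcriptomes. How the CF term animals were delivered is not stated, and the part of birth in these differences was not tested.

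No member passed between proximal and distal lung. The mean differences, distal minus proximal, ran from -0.39 (IGF1) to 0.27 (IGFBP2) on the log2 scale in WT and from -0.36 (IGFBP6) to 0.03 (IGFBP7) in CF, and 0 of 10 members passed 0.05 by edgeR in either genotype. Few genes of any kind did (0.016% in WT and 0.00497% in CF), 1 member in WT and 0 in CF had an unadjusted p under 0.05, and DESeq2 called 0 (0.016% of genes in WT and 0.0298% in CF). The pieces carried the same animal labels, and with the label as a block 0 members were called again. The standard error was 0.18 for IGF2 and 0.07 for IGFBP5 in WT, and 0.45 and 0.13 in CF, on the log2 scale.

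Several members went with the length index, as did many genes. The index is built from genes of 4000 or more and of 1500 or fewer exonic bases, the 10 members left out, so that genes of these lengths go with it by construction. In CF proximal and distal lung the median r with the index was 0.54 and 0.59 over 4483 such long genes and -0.83 and -0.84 over 1982 short ones. Of the long genes 25.1% and 27.1% had r of 0.8 or more, and of the short genes 53.6% and 54.9% had r of -0.8 or less. In WT the medians were 0.26 and 0.49 for long and -0.37 and -0.53 for short genes. Of all 11432 genes 42.6% and 43.6% had an r of 0.7 or more in either direction in CF proximal and distal lung, as did 6 of the 10 members in each. In WT these shares were 15% and 31.4%, beside 4 and 5 of the 10 members. By Pearson's r 12 of 20 relations of the members passed 0.05 in CF and 8 of 20 in WT, and by Spearman's rho 11 and 3. Across the 10 libraries of a CF course, log2 CPM of IGF2R went with the index in proximal lung (r = 0.90, permutation p = 4.00e-05, adjusted p = 0.001, Spearman rho = 0.94, permutation p = 2.30e-04, adjusted p = 0.00288, n = 10). It did so in distal lung as well (r = 0.92, permutation p = 2.70e-04, adjusted p = 0.00213, Spearman rho = 0.93, permutation p = 3.60e-04, adjusted p = 0.00288, n = 10). Without the 2 libraries farthest from the median index r was 0.88 and 0.93, and over the 8 libraries before term 0.94 and 0.93. IGF1R had r of 0.93 in CF proximal and 0.94 in CF distal lung, and IGF1 0.95 in CF proximal and 0.92 in CF distal lung, with adjusted permutation p from 0.0014 to 0.00222 over the 40 relations computed. IGF2 had 0.77 in CF proximal and 0.81 in CF distal lung (adjusted permutation p = 0.0273 and 0.0165), but Spearman's rho did not pass in proximal lung (0.70, adjusted permutation p = 0.0818), where r fell to 0.56 without the 2 farthest libraries. Over the 8 CF libraries before term r of IGF2 was 0.96 in both regions. The sign was opposite for IGFBP6, with -0.88 in CF proximal and -0.85 in CF distal lung, and for IGFBP7, with -0.73 in CF proximal and -0.91 in CF distal lung (adjusted permutation p from 0.00222 to 0.0324). Spearman's rho had the same sign in these members, from 0.84 to 0.95 for IGF1 and IGF1R and from -0.88 to -0.76 for IGFBP6 and IGFBP7 (adjusted permutation p of up to 0.0419). Without the 2 farthest libraries r ran from 0.88 to 0.99 for the first pair and from -0.81 to -0.77 for the second. IGFBP2, IGFBP3, IGFBP4 and IGFBP5 did not pass in either CF course, IGFBP5 with r of 0.42 in CF proximal and 0.42 in CF distal lung (adjusted permutation p = 0.34 in both). In WT, over a narrower range of the index, IGF2R had r of 0.98 in distal and 0.85 in proximal lung (adjusted permutation p = 0.001 and 0.0054) and IGF1R 0.89 in proximal lung (0.00384), and these 3 passed by Spearman's rho as well. IGFBP7 had -0.79 in WT proximal and -0.82 in WT distal lung (adjusted permutation p = 0.0165 and 0.0238), IGF1 0.85 in WT distal lung (0.021) and IGF2 0.71 and 0.84 (0.0447 and 0.0433), without passing by rho. Over the 8 WT libraries before term r was -0.83 and -0.43 for IGF2, -0.30 and -0.64 for IGFBP7 and 0.32 for IGF1 in distal lung. The annotated exons are 4165 bases for IGF1R, 5613 for IGF2R, 4262 for IGF1, 5767 for IGFBP5, 2671 for IGF2 and 1223 for IGFBP6. Of the 4967 genes between 1500 and 4000 bases, the class of IGF2, 35.2% and 34.4% had an r of 0.7 or more in either direction in CF proximal and distal lung. The source of the index was not tested.

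**Figure D4:**
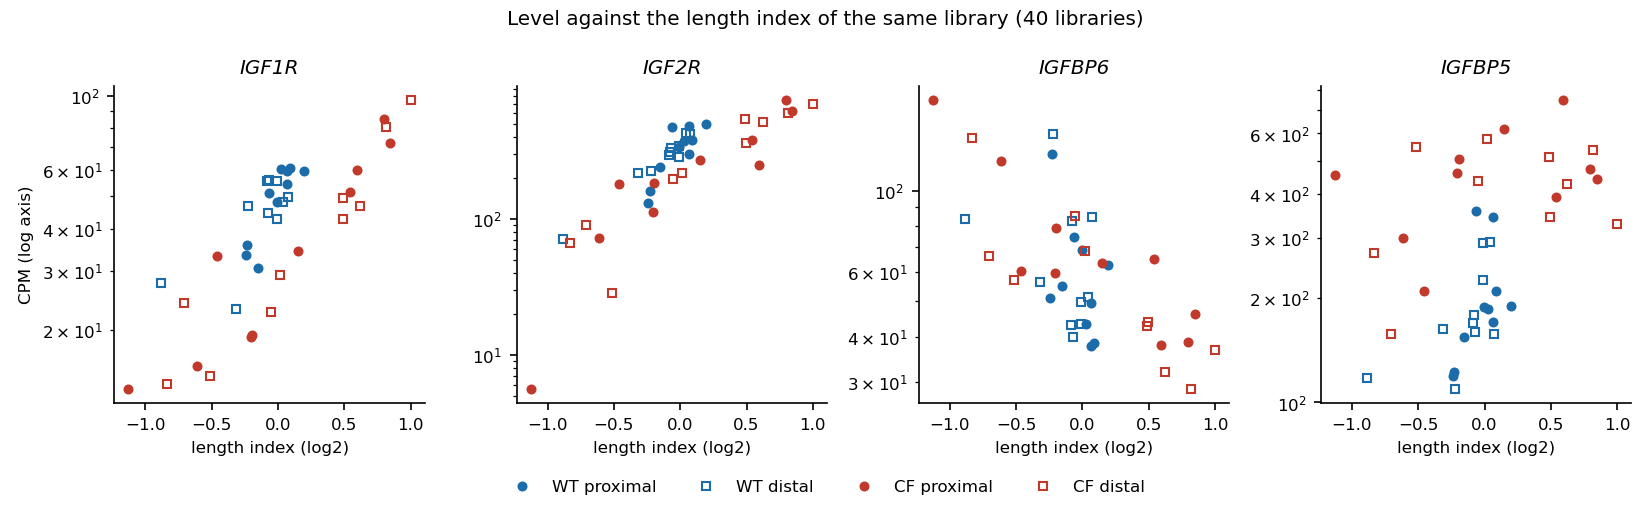
Level of IGF1R, IGF2R, IGFBP6 and IGFBP5 in CPM on log axes against the length index of the same library (log2), with 1 point per library (blue WT, red CF, filled circles proximal, open squares distal). Red points run upward for both receptors and downward for IGFBP6, while for IGFBP5 they show no such run and mostly lie above the blue points.

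The make-up of the binding proteins shifted with age. Of their summed level per kilobase, IGFBP2 was 12.4 to 18% in the 4 WT libraries of 65 days and 0.623 to 1.14% at 120 days, with 15.7 to 22.4% and 0.705 to 3.43% in CF. IGFBP7 was 40.9 to 43.7% at 65 days, 30.8 to 37.5% at 120 days and 59.1 to 73.3% at term in WT, and 23.2 to 37.8%, 30.5 to 44.1% and 44.9 to 55.5% in CF. IGFBP5 was 6.08 to 8.62% in WT and 13.7 to 21.7% in CF at 65 days, and 2.02 to 3.38% and 4.6 to 7.1% at term. IGFBP7 and IGFBP4 held the 2 largest mean shares in each condition, and IGFBP7 came first at term in all 4 courses. IGFBP4 came first in WT proximal lung at 80 days, WT distal lung at 120 days, CF proximal lung at 65 and 100 days and CF distal lung at 100 days. These shares rest on the short gene models named above.

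Around the 10 members, 65 further genes of the pathway were listed, of which 62 were in the tables. They were proteases and other extracellular regulators, insulin and its receptors, RNA-binding proteins of IGF2 mRNA, intracellular signalling, upstream regulators and imprinted growth genes. Over the 5 time points 10 of 59 tested (16.9%) were called in WT proximal and 5 of 59 (8.47%) in WT distal lung, beside 10.6% and 7.48% of all genes. At 0.05 36 (61%) and 27 (45.8%) passed, beside 40.8% and 40.4% of all genes. In CF proximal and distal lung 4 of 61 (6.56%) and 26 of 61 (42.6%) passed, beside 5.36% and 33.9%. Between 120 days and term 16 (27.1%) were lower and 6 (10.2%) higher in WT proximal lung at 0.05, beside 11.1% and 13.5% of all genes. In WT distal lung 17 (28.8%) were lower and 2 (3.39%) higher, beside 12.3% and 13.5%. In CF distal lung 10 of 61 (16.4%) were lower and 6 (9.84%) higher, beside 11.5% and 11.5%, and in CF proximal lung 0 passed (0.356% of genes did). Of the imprinted growth genes, 4 of 6 tested were lower at WT proximal term and 5 of 6 at WT distal term, and 0 were higher in either. DLK1, an imprinted membrane protein that holds back adipocyte differentiation, fell at WT proximal term (log2 fold change -3.79, SE 0.23, adjusted p = 5.18e-05, from 120 days). DLK1 in WT proximal lung was 136 and 131 CPM at 65 days, 70.9 and 71.2 at 80 days, 55.3 and 65.4 at 100 days, 53.7 and 89.2 at 120 days and 5.63 and 4.72 at term. PEG10 was 147 and 95 CPM at 120 days and 11.9 and 6.07 CPM at term in the same region (log2 fold change -3.76, SE 0.35, adjusted p = 2.56e-04). Over the 5 time points PEG10 (384 and 257 CPM at 65 days), DLK1 and HMGA2 had the largest spans of the listed genes called in WT proximal lung, at 5.17, 4.70 and 4.48 on the log2 scale (adjusted p = 9.13e-05, 1.78e-05 and 2.07e-04). HMGA2, a chromatin protein of fetal growth, went from 6.84 and 5.19 CPM at 65 days to 0.322 and 0.218 CPM at term. In WT distal lung IGF2BP1, PLAGL1 and IRS1 had the largest, at 3.86, 1.82 and 1.66 (adjusted p = 2.62e-04, 4.19e-04 and 8.70e-04). IGF2BP1, a fetal RNA-binding protein that binds IGF2 mRNA, went from 44 and 23 CPM at 65 days to 2.18 and 2.54 CPM at term there. PLAGL1, an imprinted transcription factor, went from 299 and 351 to 108 and 80.1 CPM, and IRS1, which docks on the IGF1 receptor, from 62.6 and 54.9 to 25.6 and 17.4 CPM. PEG3, an imprinted zinc finger gene, fell from 93.3 and 100.3 CPM to 34.7 and 29.4 CPM at WT proximal term (log2 fold change -1.60, SE 0.14, adjusted p = 2.10e-04). In WT distal lung CDKN1C, an imprinted inhibitor of the cell cycle, was the listed gene called in this interval (log2 fold change -1.45, SE 0.16, adjusted p = 9.73e-04). It stood at 68.8 and 95.3 CPM at 120 days and 30.7 and 30.2 CPM at term.

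Between the genotypes, averaged over time at 0.05, 6 of 61 listed genes (9.84%) were higher and 0 lower in CF in proximal lung, beside 13.9% and 7.91% of all genes. In distal lung 10 (16.4%) were higher and 2 (3.28%) lower, beside 18% and 13.2%. DLK1 was the listed gene called in each (log2 fold change 2.15, SE 0.33, adjusted p = 6.91e-04 in proximal and log2 fold change 1.56, SE 0.24, adjusted p = 2.53e-04 in distal lung). DLK1 in CF proximal lung was 876 and 519 CPM at 65 days, 179 and 555 at 80 days, 76.4 and 183 at 100 days, 40.8 and 324 at 120 days and 46.4 and 73.1 at term. DLK1 in CF distal lung was 1031 and 768 CPM at 65 days, 130.2 and 513 at 80 days, 68.4 and 122 at 100 days, 38.7 and 104 at 120 days and 57.4 and 49.8 at term. The CF libraries were highest at 65 days, and both lay above both WT libraries at each time point but 120 days, when 1 of the 2 in each region lay below both. STC1, a secreted inhibitor of the proteases that cleave IGFBP4, was the listed gene called at term in distal lung (1.25% of all genes were), with 129.9 and 362 CPM in CF and 38.1 and 35.8 CPM in WT (log2 fold change 2.76, SE 0.40, adjusted p = 6.32e-04). Its CF libraries before term held 26.9 to 58.3 CPM.

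The genes whose pattern was most like each member were found by Pearson's r of mean log2 CPM over the 20 conditions, among the 14235 genes whose mean log2 CPM reached 1. Proximal and distal lung of 1 genotype and day share animal labels, and the conditions differ in depth and length index, so r is a description. IGF2 was most like MLLT3 (0.96), ZNF280D (0.95) and PARP8 (0.94). IGFBP2 was most like SPP1 (0.94), LOC101103398 (0.94) and LMO1 (0.93). For IGFBP5 they were TULP2 (0.94), LINS1 (0.94) and PLA2G4B (0.93). IGFBP7 was most like LAT2 (0.96), CSF1R (0.96) and IL10RA (0.96), all genes expressed by leukocytes. For the receptors they were GTF3C4 (0.95), RNF144A (0.94) and PRRC2B (0.94) for IGF1R and SPEN (0.97), LOC106991323 (0.97) and PHF2 (0.96) for IGF2R. Genes most like IGF1 included LOC105609012 (0.95) and BPTF (0.94). IGFBP3 was most like GREM1 (0.92), SIPA1L2 (0.91) and PYGM (0.91), IGFBP4 RHOB (0.84), CEBPA (0.82) and ZFYVE21 (0.81) and IGFBP6 BSG (0.94), ALKBH7 (0.94) and RRAS (0.94). Among members, IGF2R went with IGF1 (r = 0.86) and IGF1R (0.85), IGFBP2 ran against IGFBP3 (-0.77) and IGF2 against IGFBP7 (-0.83) over the 20 conditions.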

How the data were processed

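RNA of proximal and distal lung was sequenced as oligo dT-primed, 100 bp paired-end libraries. The authors aligned the reads with STAR to the Oar_v4.0 sheep genome and counted them per gene with featureCounts 1.6.3, and the deposited tables hold these raw counts with exon positions and lengths. The deposited counts were normalized by TMM in edgeR 4.0.16 in R 4.3.3, and genes were kept by filterByExpr (count minimum 10, total minimum 15). CPM values used 1 TMM normalization over all 40 libraries, which held 24670355 to 126749480 counted reads.

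Each course of 10 libraries was fitted alone with edgeR's quasi-likelihood F test, over all time points and between consecutive ones. CF and WT were compared per region and regions per genotype, in fits of 20 libraries. P-values were adjusted over all genes tested by Benjamini-Hochberg, and calls used an adjusted p of 0.001 and a log2 fold change of 0.58. Alternatives were DESeq2 1.42.0, other normalization, no low-count filter, thinned counts, a length trend removed, 1 fit of all libraries, the WT libraries of 100 days summed per region and leaving out each library. Correlations used 100000 permutations.

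All 10 members are described. Listed pathway genes are named where called, at most 3 per comparison by fold. The members and lists were chosen with earlier results of these data known. Same-numbered proximal and distal libraries carry the same animal labels, and their deviations from condition means correlated with r from -0.31 to 0.84 (median 0.49, 10 pairs). In CF r was negative at 65 and 80 days (-0.31 and -0.26), and in WT at 100 days (-0.11), so the labels were not borne out there. The fits were tested on simulated data. Simulated log2 changes of 1 and 2 were called in 35% and 87% of cases over 5 time points in WT proximal lung (17980 genes) and in 57% and 100% between CF and WT proximal lung (20255 genes). Day 50 was not analysed here. One gene among those most like IGF1 is not reported here.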

Additional observations from a re-analysis of the deposited data

How the results depend on the processing

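The counts of members called moved with the limits and with the test. With both limits relaxed, to an adjusted p of 0.05 without a fold limit, 7 rather than 4 members changed over time in WT proximal, 8 rather than 2 in WT distal, 1 rather than 0 in CF proximal and 2 rather than 1 in CF distal lung. Calls between consecutive time points, counted over members and intervals, then went from 2 to 9 in WT proximal, from 1 to 9 in WT distal and from 0 to 1 in CF distal lung, and calls between CF and WT at single time points from 0 to 4 in proximal and from 0 to 5 in distal lung. DESeq2 gave 7, 8, 1 and 2 members for the 4 courses, where it called 32.5%, 32.9%, 10.6% and 29.6% of all genes. It gave 9 and 7 calls between consecutive time points in WT proximal and distal lung (0.176% to 13.3% and 0.0985% to 13.7% of genes per interval), and 4 and 4 at single time points in proximal and distal lung (0.467% to 4.31% and 2.73% to 7.59% of genes per time point). Without the low-count filter there were 4 and 2 calls between consecutive time points in WT proximal and distal lung. In 1 fit of all 40 libraries there were 1 in WT proximal lung, 1 over time in CF proximal, 3 over time in CF distal lung and 1 at single time points in proximal lung. Shares of all genes are not given for the run without the filter, the fit of all 40 libraries or the runs with a library left out. Those counts therefore do not set the members apart from other genes. With the length trend removed, 1 distal call at single time points (IGFBP7 at term) and 1 distal member with a different change to term (IGFBP7) appeared. The cause was not tested.

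Leaving out each library in turn gave 3 to 5 members over time in WT proximal, 2 to 4 in WT distal, 0 in CF proximal and 0 to 1 in CF distal lung, and 0 to 2 and 0 to 5 calls between consecutive time points in WT proximal and distal lung. IGFBP5 was the member called between CF and WT, in 1 of 10 members, under every alternative run in both regions. Its log2 difference was 1.13 to 1.24 proximally and 1.05 to 1.20 distally with 1 library left out.

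In the comparison of proximal with distal lung, the animal as a replicate block left the count of members called at 0 in WT and in CF. Same-numbered libraries of different time points or genotypes share only a number (median r 0.05 and 0.098), and the block moved no count of calls there either. At 0.05 it ended 2 calls of IGFBP5, from 100 to 120 days in WT distal lung (adjusted p = 0.059) and between CF and WT proximal lung at 80 days (adjusted p = 0.072). With numbers crossed at 65 and 80 days the count was 0 between regions in CF. No direction of a member past 0.05 was reversed. Depth differed between genotypes before term and, within WT, between earlier days and term. A simulated log2 change of 1 from 120 days to term in WT proximal lung was called in 26% of 100 changed genes (17980 genes tested).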
